A study of Mus musculus with 20 samples.

Results

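H3K27me3, the trimethyl mark on lysine 27 of histone H3, was compared between SS mutant and wild-type (WT) fibroblasts that had stopped dividing, on chromosomes 1 to 19 of the mm9 mouse genome. The members are the peaks of the arrested WT list and the arrested SS list that lie on those 19 autosomes, chosen by the titles of the 2 libraries and by chromosome, not by any measured value. There were 632166 such peaks in WT and 208802 in SS cells, together 840968 of the 4480164 peaks in the 10 lists of the series. The cells were primary mouse embryonic fibroblasts from C57BL/6 embryos of stage E13.5, fixed at passage 4, and both genotypes had been held in 0.1% serum for 72 h after growth in 10% serum. The labels call the mutant SS and do not spell the genotype out, and they do not say how many embryos a culture came from or which sex. Each genotype and growth condition was assayed with 1 library and the same H3K27me3 antibody, so differences below could not be checked against replicates or given a p-value. H3K27me3 lists of asynchronously proliferating WT and SS cells in 10% serum, 1 library each, serve as a reference for where the mark lies. A peak list holds no expression values, so neither the cell type nor the arrest could be checked against markers, and the sequencing depth behind each list is unknown.

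H3K27me3 is laid down by Polycomb repressive complex 2, whose catalytic subunit is Ezh2 or Ezh1, and the complex can bind the mark it has made and extend it along neighbouring nucleosomes. In differentiated cells such as fibroblasts the mark is known for long domains over silent genes of development, such as the homeobox clusters, and for lower levels spread between genes. The retinoblastoma protein, pRb, is the tumour suppressor that restrains cell cycle genes in arrested cells, and the series title ties it to the silencing of retroelements. A list of called peaks shows where signal passed the caller's threshold, not how much of the mark a cell holds.

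Before any comparison, the WT list of arrested cells was unlike the other 3 lists of this mark in its peak lengths and q-values. Of its peaks, 45.6% had exactly the shortest length in the list, 133 bp. The share at the shortest length was 23.8% in arrested SS cells (145 bp), 6.84% in proliferating WT and 8.97% in proliferating SS cells (155 bp in both). Of the arrested WT peaks, 42.9% had a -log10 q-value of at least 10, whereas this share was 0.0206% for arrested SS, 0.751% for proliferating WT and 1.26% for proliferating SS cells. The lowest -log10 q-value was nearly equal in the 2 arrested lists, 1.03 in each. With 1 library per genotype, the WT library cannot be left out, and its own properties and the genotype cannot be told apart in any value below. Whether duplicate reads were kept in any library is not given in the sources used here, and their part in the number and fold of the shortest peaks was not tested.

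The 2 arrested lists differed first in peak length. Short peaks were more numerous in WT and long peaks in SS cells. Under 500 bp there were 524467 WT peaks and 114058 SS peaks, a ratio of SS to WT of 0.217. From 500 bp to 1 kb there were 80541 in WT and 54636 in SS cells, a ratio of 0.678. From 1 to 5 kb the order turned, with 26998 in WT and 37203 in SS cells, a ratio of 1.38. Over 5 kb the lists held 160 WT peaks and 2905 SS peaks, a ratio of 18.2. Peaks over 10 kb numbered 6 in WT and 628 in SS cells.

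The covered length, the summed length of the peaks, was less unequal than the number. WT peaks covered 184.8 Mb, or 7.47% of the autosomal sequence spanned by the lists, at a mean length of 292 bp. SS peaks covered 159.5 Mb, or 6.45%, at a mean length of 764 bp. The ratio of SS to WT was 0.863, and its side depended on the short peaks. It was 1.36 among peaks of at least 500 bp, and 1.04 without the peaks of shortest length, a setting added once the data had been seen. It moved the other way, to 0.685, when peaks within 1 kb were merged, and to 0.4999 at a -log10 q-value of at least 2, which was also added later. Peaks under 500 bp made up 47.3% of what WT peaks covered and 16.8% of what SS peaks covered. Peaks over 1 kb made up the larger part in SS cells, with 43.5% of covered length from 1 to 5 kb and 15.8% over 5 kb, against 22.1% and 0.603% in WT cells. In proliferating cells the 2 genotypes had similar length profiles, with 46.0% of covered length over 5 kb in WT and 44.9% in SS cells. There the SS list held more peaks in every class, with ratios from 1.16 over 5 kb to 1.35 under 500 bp. The share over 5 kb in arrested SS cells thus lay between that of arrested WT cells and those of proliferating cells. From 1 to 5 kb the arrested SS share of 43.5% was the highest of the 4 lists, against 38.3% in both proliferating lists.

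**Figure D1:**
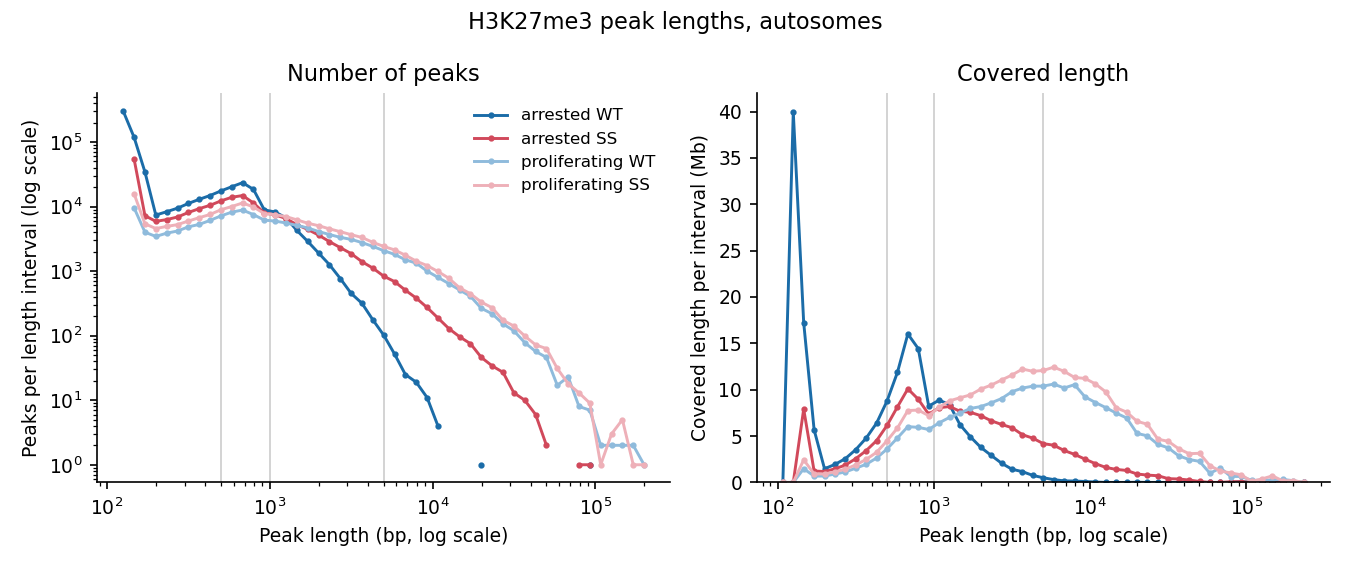
Number of autosomal H3K27me3 peaks (left, log scale) and length they cover in Mb (right) by peak length in bp (log scale) for the 4 lists, 1 library each; grey lines mark 500 bp, 1 kb and 5 kb. Arrested WT peaks pile up near 133 bp and number 160 over 5 kb, whereas arrested SS peaks number 2905 there and the proliferating lists 10060 in WT and 11703 in SS.

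Fold enrichment is the authors' value for each peak over the caller's local background. It was read within a list only, since depth and background differ between libraries in ways the lists do not give. Among WT peaks the median fold was higher in every longer length class, from 5.77 under 500 bp through 6.22 and 6.65 to 7.18 over 5 kb. Among SS peaks the medians were 3.22, 3.12, 3.40 and 3.97 in the same order, so that the shortest class stood above the second. In both lists the spread of fold narrowed with length. The range from the 10th to the 90th percentile was 3.16 to 11.6 for WT peaks under 500 bp and 5.70 to 8.81 over 5 kb. For SS peaks it was 2.72 to 4.12 under 500 bp and 3.51 to 4.57 over 5 kb. The highest folds sat on short peaks in both lists, with a maximum of 35.0 in WT and 30.5 in SS cells under 500 bp, against 9.83 and 6.06 over 5 kb. Across all peaks of a list, which are not independent, Spearman's rho between length and fold was 0.333 in WT (632166 peaks) and 0.0465 in SS cells (208802 peaks). It was 0.377 in proliferating WT and 0.337 in proliferating SS cells.

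The shortest peaks differed in fold from other peaks under 500 bp in WT but hardly in SS cells. In position they lay nearer the background in both lists. In WT cells the 288097 peaks of exactly 133 bp had a median fold of 4.54, and the other 236370 peaks under 500 bp had a median of 7.96. In SS cells the 49634 peaks of exactly 145 bp had a median of 3.25, close to the 3.19 of the other 64424 under 500 bp. Sequence in the 133 bp WT peaks lay in proliferating WT peaks to 11.5%, which is 1.21 times the 9.51% of all autosomal sequence that those peaks cover. For the other WT peaks under 500 bp the share was 19.6%, or 2.06 times. In SS cells the shares were 14.6% for the shortest peaks and 32.2% for the others, or 1.54 and 3.39 times.

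The relation between fold and the sequence that proliferating cells also mark differed between the lists. Peaks were ranked by fold within each list and divided into 10 equal parts, numbered from 1 (lowest) to 10 (highest). In SS cells the share of peak sequence inside proliferating WT peaks was larger in every step, from 23.4% in part 1 to 87.8% in part 10. In WT cells it grew from 15.3% in part 1 to 40.02% in part 7 and was lower again in parts 8, 9 and 10, at 38.8%, 31.9% and 23.1%. Counted by peak, without regard to length, the SS shares that met a proliferating WT peak were lower and levelled off, from 27.0% in part 1 to 55.1%, 55.9% and 53.9% in parts 8, 9 and 10. The WT shares by peak were 14.0% in part 1, 25.4% in part 7 and 18.4% in part 10. By sequence, proliferating SS peaks gave the same shapes as proliferating WT peaks, from 28.7% to 89.6% for SS peaks, and for WT peaks 18.4%, 43.2% and 26.7% in parts 1, 7 and 10. Part 10 of the WT list had folds of 11.2 to 35.0 and a median length of 144 bp, and 9.86% of them had the shortest length. Part 10 of the SS list had folds of 4.05 to 30.5 and a median length of 218 bp. Arrested SS peaks held 15.2% of the sequence in part 10 of the WT list and 28.1% in part 7. WT peaks held 41.9% of the sequence in part 10 of the SS list and 12.2% in part 1, although by peak the share of SS peaks that met a WT peak was 45.8% in part 9 and 41.2% in part 10.

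**Figure D2:**
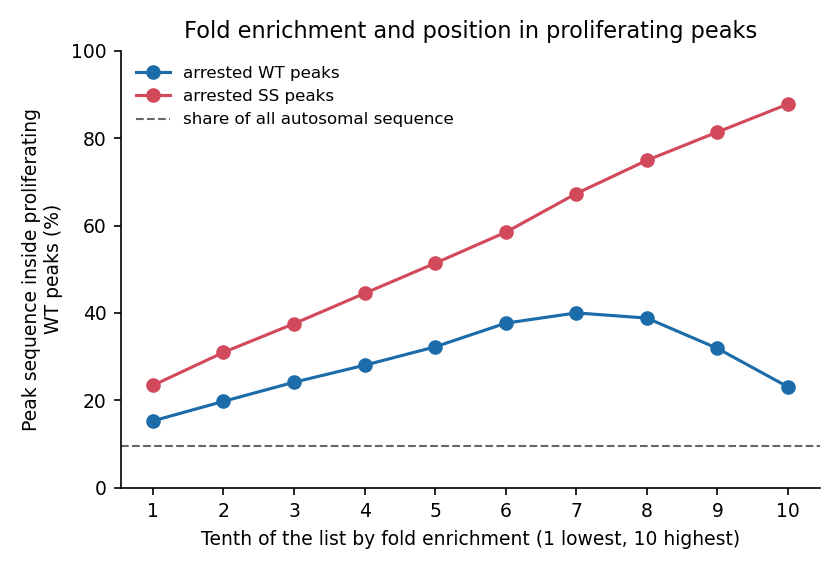
Share of arrested peak sequence that lies inside proliferating WT H3K27me3 peaks (%, vertical axis) for 10 equal parts of the arrested WT and SS lists ranked by the authors' fold enrichment (horizontal axis, 1 lowest); the dashed line is the 9.51% of autosomal sequence inside those peaks. SS peaks reach 87.8% in part 10, and WT peaks 40.02% in part 7 and 23.1% in part 10.

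The places of the peaks were then compared by length class. Nearly all peaks over 5 kb of either list met the other list, and most peaks under 1 kb did not. By sequence, WT peaks over 5 kb lay to 93.9% inside SS peaks, but SS peaks over 5 kb only to 45.7% inside WT peaks. Counting any peak with 1 bp or more in common, 15.9% of WT peaks met an SS peak (95% Wilson interval 15.8 to 16.0), and 38.3% of SS peaks met a WT peak (38.0 to 38.5). When 50% of both peaks had to be shared, these shares were 1.99% and 6.04%. The intervals hold only the counting error, with each peak taken as independent of its neighbours, which it is not. Since longer peaks meet another list more easily, the share of their sequence inside the other list is the fairer measure. For WT peaks it was 10.3% under 500 bp, 18.9% from 500 bp to 1 kb, 44.8% from 1 to 5 kb and 93.9% over 5 kb. These are 1.60, 2.93, 6.94 and 14.6 times the 6.45% of autosomal sequence in SS peaks. For SS peaks the shares inside WT peaks were 13.0%, 15.3%, 25.9% and 45.7%, or 1.73, 2.05, 3.46 and 6.12 times the 7.47% in WT peaks. All 160 WT peaks over 5 kb met an SS peak, and 2903 of the 2905 SS peaks over 5 kb met a WT peak.

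Proliferating peaks, which took no part in either arrested list, gave a second view of the same classes. Arrested SS peaks lay in proliferating WT peaks for 27.5%, 38.8%, 76.1% and 97.9% of their sequence from the shortest class to the longest. Arrested WT peaks did so for 16.0%, 29.8%, 62.6% and 99.4%. Below 5 kb the SS share was thus higher in each class, and over 5 kb both were nearly complete. Over the whole lists the shares were 62.5% for SS peaks and 31.0% for WT peaks, or 6.57 and 3.26 times the background of 9.51%. The proliferating peaks of the mutant gave 67.2% and 34.3%, the same order.

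Peaks of the caller are separated by gaps, and the lists differed in how these gaps were filled. No gap was shorter than 533 bp in WT or 581 bp in SS cells, nor than 621 bp in either proliferating list. The shortest peak and shortest gap thus differed between libraries, and lengths and pieces were compared at these unlike limits. The median gap was 2250 bp in WT and 3237 bp in SS cells, and the gap at the 90th percentile was 7813 bp in WT and 27489 bp in SS cells. Long stretches without a peak were thus rarer in WT cells. Joining neighbours less than 1 kb apart left 510097 islands in WT and 169567 in SS cells, a ratio of 0.332 that hardly differed from the 0.330 of the peaks as called. The joining raised the number of islands over 5 kb from 160 to 2698 in WT, and from 2905 to 6472 in SS cells. The SS to WT ratio of such islands was 2.40, against 18.2 as called. From 1 to 5 kb the ratio turned from 1.38 to 0.442. With gaps of up to 2 kb joined, WT islands over 5 kb outnumbered those of SS cells, 22665 to 11550.

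The islands made by joining were filled to different degrees. At 2 kb the WT islands spanned 20.9% of the autosomes and called peaks made up 35.8% of that span, whereas SS islands spanned 9.95% and were filled to 64.9%. At 5 kb WT islands spanned 48.4% of the autosomes and SS islands 16.2%. The proliferating lists spanned 15.7% in WT and 19.6% in SS cells at the same distance. At 10 kb the WT span reached 75.6%, against 24.8% in arrested SS cells, 20.3% in proliferating WT and 25.4% in proliferating SS cells. Joining thus carried the arrested WT list over most of the genome, while the arrested SS list stayed close to the proliferating lists. The WT span at 10 kb restates the number and spacing of WT peaks, whose gaps had a 90th percentile of 7813 bp, and not where they lie.

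**Figure D3:**
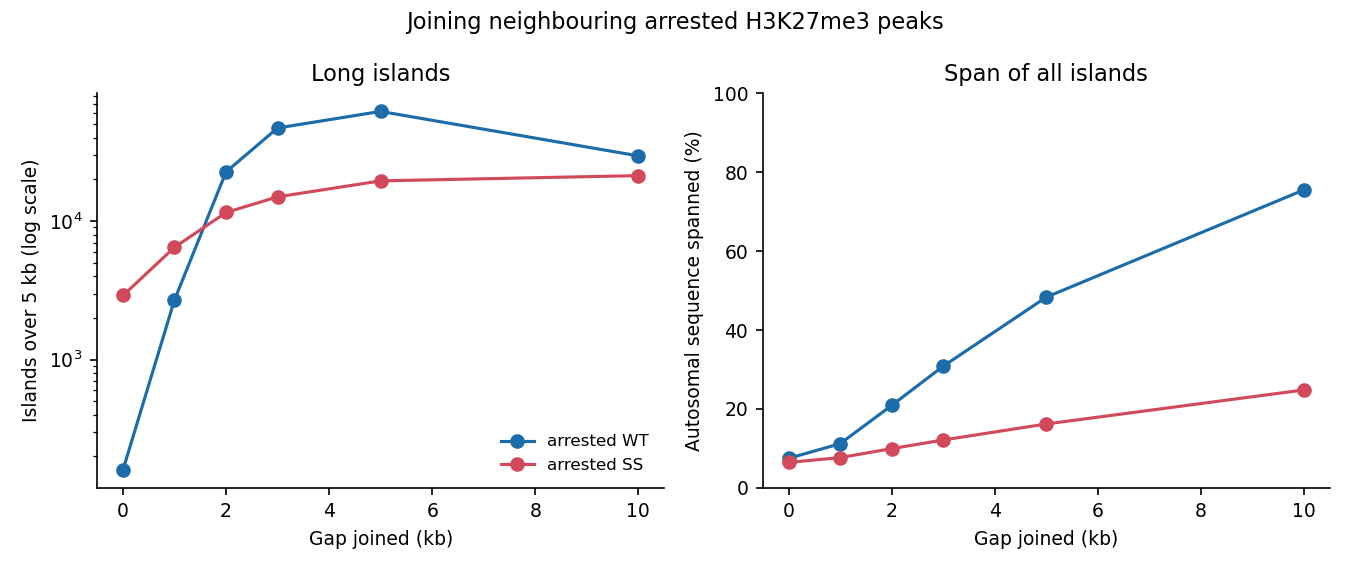
Number of islands over 5 kb (left, log scale) and share of autosomal sequence spanned by islands of any length (right, %) after peaks separated by up to the given gap in kb were joined within the arrested WT and SS lists. WT islands over 5 kb number 160 with no joining and 22665 at 2 kb, where they outnumber the 11550 SS islands.

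Fragmentation was measured in regions that neither arrested list had defined. Proliferating H3K27me3 peaks over 5 kb of either genotype were merged into 12374 autosomal regions spanning 144.9 Mb, and the arrested peaks that touched each region were counted as its pieces. WT peaks formed more pieces than SS peaks in 8457 regions, 68.3% of all. SS peaks formed more in 1804, or 14.6%, and the number was equal in 2113. The median was 4 pieces in WT and 3 in SS cells, while the whole WT list held 3.03 times as many peaks. A larger number of WT pieces is thus no measure of splitting by itself. WT peaks nevertheless covered less of the regions: SS covered more in 10675, or 86.3%. The median covered share was 24.8% in WT and 47.5% in SS cells, and the median difference was 22.3 percentage points. The longest single piece spanned a median of 10.7% of a region in WT and 24.2% in SS cells, and it was the longer in SS in 10543 regions, 85.2%. A single piece spanned 50% or more of the region in 55 regions in WT and 1546 in SS cells. No WT peak touched 38 regions, and no SS peak touched 71.

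The difference widened with the length of the region. In the 7701 regions of 5 to 10 kb the median number of pieces was 3 in both lists, and the covered share 21.7% in WT and 41.0% in SS cells. In the 3318 regions of 10 to 20 kb the medians were 7 pieces and 27.0% in WT, and 5 pieces and 53.5% in SS cells. In the 1194 regions of 20 to 50 kb they were 14 pieces and 32.5% against 8 pieces and 65.5%. In the 161 regions over 50 kb they were 31 pieces and 40.2% in WT and 15 pieces and 76.9% in SS cells. WT had the more pieces in 160 of these 161 longest regions, and SS the longer single piece in all 161. Among regions of 5 to 10 kb the WT list had more pieces in 59.5%, which is below the 68.3% of all regions.

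Single regions went both ways. The 3 regions with the largest difference in favour of SS were short ones. On chromosome 12 at 87912975-87918711, WT peaks covered 4.64% in 2 pieces and 1 SS peak covered the whole region. On chromosome 1 at 22252434-22257663 the shares were 11.1% in WT and 100% in SS cells. On chromosome 12 at 77828684-77836561 they were 8.97%, in 5 pieces, and 95.6%, in 1 piece. The largest differences in favour of WT were smaller. On chromosome 4 at 120066521-120071817, WT peaks covered 74.9% and SS peaks 5.47%. On chromosome 11 at 107694508-107701056 the shares were 56.6% and 5.62%, and on chromosome 12 at 101260706-101266613 they were 60.7% and 11.6%.

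The long SS peaks gave a view from the other side. The WT list holds 3.03 times as many peaks, with a median gap of 2250 bp. Several WT pieces in a stretch over 5 kb are thus no measure of splitting by themselves. Since these peaks were taken from the SS list, their full cover in SS is given by the choice, and the WT share in them is a description. Of the 2905 SS peaks over 5 kb, 2849 or 98.1% were met by 2 or more WT peaks, 54 by 1 and 2 by none. The median was 4 WT pieces, covering 42.3% of the SS peak, with an interquartile range of 29.6 to 55.0%. The longest WT piece in a long SS peak had a median of 20.1% of its length. The reverse view is not a like comparison. It rests on 0.0253% of the WT list against 1.39% of the SS list, and its pieces come from the smaller list. Of the 160 WT peaks over 5 kb, 112 were met by a single SS peak, 92 were covered to 100%, and none was met by more than 4 SS peaks. Proliferating WT peaks covered 147 of these WT peaks and 2212 of the 2905 SS peaks in full, and every long peak of both lists touched one. The 13091 WT peaks that met a long SS peak were 2.07% of the WT list. They were longer than the list as a whole, with a median of 603 bp against 138 bp, and had a median fold of 6.65 against 5.86.

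The 5 SS peaks with the most WT peaks in them lay inside single peaks of proliferating cells. The SS peak met by the most WT peaks lay on chromosome 15 at 102735326-102811943, 76618 bp long, with a fold of 4.62. It held 25 WT peaks that covered 74.6% of it, of which the longest spanned 15.0%. On chromosome 6, SS peaks at 6795600-6834882 and at 52182040-52228116 each held 21 WT peaks, which covered 58.4% and 63.7%. On chromosome 19 at 44797374-44849008 and on chromosome 4 at 139362407-139402019 each SS peak held 19 WT peaks, which covered 69.3% and 49.9%. A single peak of each proliferating list covered each of these 5 in full. The map of the chromosome 15 peak shows the 4 lists within 60 kb of its centre.

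**Figure D4:**
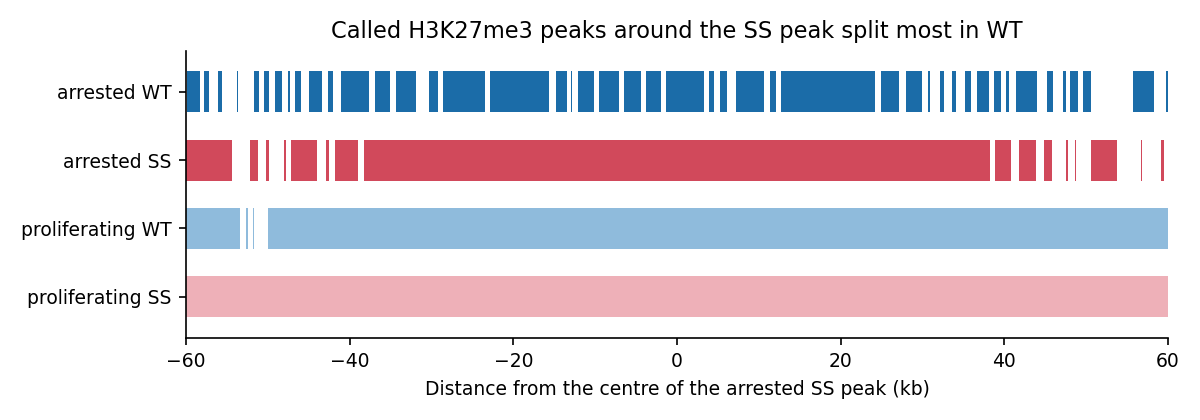
Called H3K27me3 peaks (bars) of the 4 lists, 1 library each, within 60 kb of the centre of the arrested SS peak on chromosome 15 that was met by the most WT peaks; the horizontal axis is distance in kb. A single SS peak of 76618 bp stands against 25 WT peaks that cover 74.6% of it, inside unbroken proliferating peaks.

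The longest peak of either arrested list did not follow this pattern. On chromosome 8 the WT list had a single peak at 126061326-126147303, of 85978 bp and a fold of 3.87, and the SS list one at 126061289-126148388, of 87100 bp and a fold of 5.00. Both proliferating lists covered the place in full. WT cells had no other peak of such length, and the next longest were 19166 bp on chromosome 9 at 121129429-121148594 and 11478 bp on chromosome 15 at 102786367-102797844. The other 2 of the 5 longest lay on chromosome 3 at 87604670-87615427 and chromosome 10 at 84215768-84225994. SS peaks covered these 4 in full too, each in 1 piece. The SS list's own longest peaks after chromosome 8 were the chromosome 15 peak described above, 2 on chromosome 19 of 51635 and 49604 bp, and 1 on chromosome 6 of 46077 bp. The second of the chromosome 19 peaks, at 45196951-45246554, held 18 WT peaks that covered 64.0% of it.

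The 3 peaks of highest -log10 q-value were short in both lists, and they met peaks of the other 3 H3K27me3 lists to different degrees. In WT cells the first was a 362 bp peak on chromosome 6 at 5455431-5455792 with a fold of 35.0, which a proliferating SS peak covered to 37.0% and no arrested SS or proliferating WT peak touched. The second, 164 bp on chromosome 9 at 83737600-83737763, had no peak in any of the other 9 lists. The third, 158 bp on chromosome 5 at 106988567-106988724, lay inside a peak of each of the other 3 H3K27me3 lists. In SS cells the 3 highest were 277 bp on chromosome 1 at 12634754-12635030, 267 bp on chromosome 14 at 104736070-104736336 and 274 bp on chromosome 17 at 56339337-56339610. Their folds were 29.4, 30.5 and 24.2. WT peaks covered 94.2%, 82.4% and 88.0% of them, and proliferating peaks of both genotypes covered at least 94.9% of each.

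Each autosome showed the same split by length. SS cells had fewer peaks under 500 bp and from 500 bp to 1 kb on all 19 chromosomes, with ratios of 0.197 to 0.247 and 0.605 to 0.748. They had more from 1 to 5 kb, with ratios of 1.16 to 1.53, and more over 5 kb, with ratios of 8.28 to 32.5, again on all 19. The last range rests on 2 to 18 WT peaks per chromosome. In all classes together SS covered more than WT on 2 of the 19 autosomes, and on all 19 once shorter peaks than 500 bp were left out. The mean peak length ran from 266 to 327 bp in WT and from 604 to 898 bp in SS cells, with the lowest on chromosome 3 and the highest on chromosome 11 in both lists. The median fold per chromosome varied little, between 5.80 and 6.02 in WT and between 3.20 and 3.26 in SS cells.

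The ratio of covered length differed by 1.71 times between the extreme chromosomes. It was highest on chromosome 11, where WT peaks covered 8.96% and SS peaks 9.66%, a ratio of 1.08. Chromosome 7 followed with 7.32% and 7.39%, a ratio of 1.01, and chromosome 19 with 8.33% and 8.20%, a ratio of 0.984. The lowest was chromosome 3, with 6.50% in WT and 4.09% in SS cells, a ratio of 0.629. Chromosomes 10 and 16 came next at 0.705 and 0.713. Chromosome 11 also held the most SS peaks over 5 kb per Mb, 2.17, and chromosome 3 the fewest, 0.514.

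Chromosomes rich in the mark in proliferating cells were those with the highest SS to WT ratio in arrested cells. Chromosome 11 was covered to 14.7% by proliferating WT peaks, the most of any autosome, and chromosome 3 to 5.72%, the least. The share covered by arrested SS peaks varied by 2.36 times across the autosomes, close to the 2.57 times of the proliferating WT list, whereas that of arrested WT peaks varied by 1.38 times. Over the 19 chromosomes, which share libraries and base composition, the arrested SS share had a Pearson's r of 0.994 and a Spearman's rho of 0.989 with the proliferating WT share. For the arrested WT share these were 0.962 and 0.918. The SS to WT ratio of arrested cells had an r of 0.959 and a rho of 0.954 with the proliferating WT share. With the SS to WT ratio of proliferating cells it had an r of -0.805 and a rho of -0.798. Chromosome 3, lowest in arrested cells, had the highest ratio in proliferating cells, 1.30. These are descriptions of 19 points and were not tested.

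**Figure D5:**
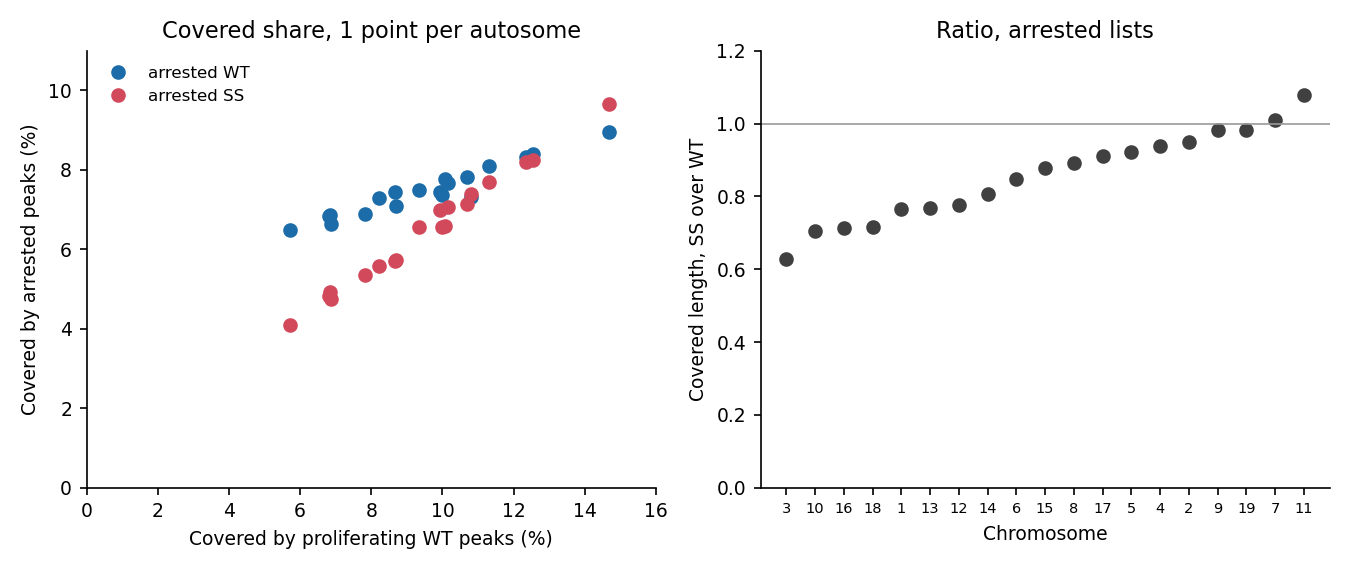
Left: share of each autosome covered by arrested WT and SS peaks (%, vertical axis) against the share covered by proliferating WT peaks (%, horizontal axis), 1 point per chromosome and list. Right: covered length of arrested SS over WT peaks by chromosome, ordered; chromosome 3 is lowest at 0.629, and chromosomes 7 and 11 lie above the line at 1.

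The relation of the arrested lists to proliferating WT cover held at a finer scale. The autosomes were cut into bins of 100 kb, and the 24020 in which any list of the series had a peak were used. The median bin was 6.17% covered by arrested WT and 2.46% by SS peaks, while the bin at the 99th percentile was covered to 27.8% and 51.2%. Bins covered to less than 1% numbered 54 in WT and 7103 in SS cells. The 5% of bins with the most cover held 15.8% of what WT peaks covered and 32.1% of what SS peaks covered, and in the proliferating lists these shares were 32.3% in WT and 28.7% in SS cells. Bins were then sorted by their cover in proliferating WT cells. In the 12098 bins below 2% the WT median was 4.60% and the SS median 0.839%, and SS covered more in 0.843% of them. From 10 to 20% the medians were 9.07% and 8.16%, and SS covered more in 40.8% of 2763 bins. From 20 to 40% they were 12.6% and 16.2%, and SS covered more in 78.2% of 2419. In the 1634 bins of at least 40% they were 20.1% and 34.5%, and SS covered more in 97.4%.

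Of the 15980 bins covered to at least 5% in either arrested list, SS covered 587 at least 2 times as much as WT, or 3.67%, and WT covered 6410 at least 2 times as much as SS, or 40.1%. The 587 bins had a median proliferating WT cover of 50.9%, and the 6410 bins one of 0.674%. For the 8983 tested bins called for neither side it was 15.2%. With peaks of at least 500 bp alone the order turned, with 2820 bins for SS and 746 for WT among 7874. By chromosome, the share of bins in favour of SS ran from 1.04% on chromosome 3 to 6.13% on chromosome 4. The share in favour of WT ran from 26.6% on chromosome 11 to 52.2% on chromosome 3.

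The 5 bins with the largest gain in SS cells lay mostly inside proliferating peaks. On chromosome 8 at 125200001-125300000, 53 WT peaks covered 39.4% and 12 SS peaks 88.1%. On chromosome 2 at 28800001-28900000, 55 WT peaks covered 33.5% and 19 SS peaks 80.5%. On chromosome 5 the bins at 110900001-111000000 and 35600001-35700000 had 50 and 52 WT peaks covering 29.4% and 31.8%, and 24 SS peaks each covering 75.5% and 77.0%. On chromosome 11 at 84400001-84500000, 53 WT peaks covered 29.4% and 24 SS peaks 74.6%. In all 5 the SS list had fewer peaks and more cover, and proliferating WT peaks covered between 89.5% and 100%. That cover was not always unbroken. In the chromosome 5 bin at 110900001-111000000 each proliferating list had 9 peaks, the longest spanning 22.4% in WT and 33.3% in SS cells.

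The 5 largest losses were smaller than the 5 gains and less alike. The bins on chromosome 8 at 73600001-73700000 and at 19900001-20000000 were covered to 26.6% and 22.4% in WT and to 9.05% and 8.41% in SS cells. Proliferating WT peaks covered them to 60.5% and 51.8%. The bin on chromosome 11 at 3000001-3100000 had 20.4% in WT and 5.13% in SS cells, with 38.7% in proliferating WT cells. On chromosome 13 at 12900001-13000000 the arrested values were 15.95% and 3.03%, with 4.43% in proliferating WT cells. On chromosome 4 at 146800001-146900000, 37 WT peaks covered 14.2% and no SS peak was called, while proliferating WT peaks covered 8.61%. Genes and repeats in the bins and regions named here were not analysed here, because the annotation at hand belongs to another genome build.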

How the data were processed

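Peak lists of H3K27me3 chromatin immunoprecipitation libraries were used as deposited, 1 per sample, with groups read from the titles of the samples. Per the submitters' processing notes, Bowtie2, MACS2, HOMER and bedtools were used with the build mm9; versions, settings and control library were not given in the sources used here. Each library has a list of its own. The deposited lists hold 9 columns: position, a score, the fold enrichment as a ratio, and the -log10 p-value and -log10 q-value, all as the authors' caller gave them. In every row the score lay within 1 unit of 10 times the -log10 q-value. The pRb lists, whose deposited score has no stated scale, entered only as positions and counts of peaks. No reads were counted, so depth is unknown and no interval that needs it is given. The 10 input libraries were not analysed here.

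Peaks on chromosomes 1 to 19 were kept, and positions are printed counted from 1. Autosomal sequence is the sum over chromosomes of the last peak end in any list, 2472 Mb. Length classes were under 500 bp, 500 bp to under 1 kb, 1 to 5 kb and over 5 kb. Covered length is summed peak length; peaks did not overlap within a list. Overlap needed at least 1 bp. Regions are merged proliferating peaks over 5 kb. Bins of 100 kb with a covered share of at least 5% in either list were called at a ratio of 2. The rule for named places took the extreme 3 chromosomes, 5 bins and 3 regions on either side. It also took the 5 longest peaks, the 3 peaks of highest -log10 q-value and the 5 SS peaks over 5 kb that met the most WT peaks. The members, classes and rules were chosen with earlier results of these data known. Alternatives were a common -log10 q-value cutoff, the upper 50% of each list, merging within 1 kb, longer peaks only, a reciprocal overlap of 50%, other regions and larger bins. No test over samples was possible with 1 library in each group. The interval computations were tested on simulated data. Python 3.11.15, numpy 2.4.6, pandas 2.3.3 and matplotlib 3.10.9 were used.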

Additional observations from a re-analysis of the deposited data

Results flagged for a closer look

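For arrested and proliferating cells the ratio of SS to WT lay on opposite sides of 1 in several measures, each from 1 library per group, and the difference between growth conditions was not tested. The peak number ratio on the autosomes was 0.330 in arrested and 1.27 in proliferating cells, and the covered length ratio 0.863 and 1.21. Under 500 bp the number ratio was 0.217 in arrested and 1.35 in proliferating cells, and the covered length ratio 0.308 and 1.30. From 500 bp to 1 kb the number ratio was 0.678 and 1.27, and the covered length ratio 0.685 and 1.27. From 1 to 5 kb and over 5 kb the ratios were above 1 in both growth conditions.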

How the results depend on the processing

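All values rest on 1 library per group, and fold enrichment and q-values depend on a depth that is unknown, so a common threshold does not make the lists equal. The common -log10 q-value cutoff, 1.03, kept 632165 of the 632166 WT peaks and all 208802 SS peaks. It therefore could not move the ratios of number and covered length and is no check on them. No paired analysis was possible because each group has 1 library. In what follows the cause of each shift was not tested.

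The peak number ratio of SS to WT was 0.332 after merging within 1 kb, 0.140 at a -log10 q-value of at least 2 and 0.463 without the shortest peaks, the last 2 chosen after the data were seen. By class, the upper 50% of each list gave 0.214 under 500 bp and 0.481 from 500 bp to 1 kb. Merging gave 0.246, 0.581, 0.442 (turning the side from 1 to 5 kb) and 2.40 from the shortest class to the longest. The covered length ratio was 0.990 in the upper 50%, 0.685 after merging and 0.4999 at the stricter q-value, and it turned to 1.36 among peaks of at least 500 bp and 1.04 without the shortest peaks. The share of WT peaks meeting an SS peak was 1.99% with reciprocal overlap, 12.3% in the upper 50% and 20.3% without the shortest peaks. The matching SS shares were 6.04%, 29.1% and 35.6%. WT had more pieces in 69.9% of regions drawn from proliferating WT cells alone, in 62.2% after merging and in 89.2% at the stricter q-value. Bins in favour of SS and WT numbered 3 and 541 at 1 Mb, and 2820 and 746 among peaks of at least 500 bp. SS covered more on 19 autosomes among peaks of at least 500 bp, and likewise at 1 kb.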

Other observations

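Ezh2 peaks of serum-deprived cells showed little preference for either arrested H3K27me3 list, whatever the length of the peak. Ezh2 WT peaks held 3.72% of arrested WT peak sequence against 3.20% of autosomal sequence, or 1.16 times. Ezh2 SS peaks held 5.79% of arrested SS peak sequence against 4.91%, or 1.18 times. By class the excess was smallest over 5 kb: 1.06 times for WT peaks in the Ezh2 WT list, and 1.03 times for SS peaks in the Ezh2 SS list. Under 500 bp it was 1.18 and 1.29 times. Of the peaks over 5 kb, 142 of the 160 in WT met an Ezh2 WT peak and 2835 of the 2905 in SS met an Ezh2 SS peak. Among peaks of all lengths these shares were 13.6% and 33.7%. Longer peaks meet another list more easily, and the 2 Ezh2 lists differ in number, so these counts show no preference. The Ezh2 lists hold 809627 WT and 1138246 SS autosomal peaks.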
